A study of Homo sapiens with 6 samples.

Results

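A set of 10 interferon genes was followed in GEN2.2 cells, a human leukaemia line of the plasmacytoid dendritic cell lineage. The type I members were IFNB1, IFNW1, IFNA1, IFNA2, IFNA4, IFNA8 and IFNE, and the type III members were IFNL1, IFNL2 and IFNL3. They were chosen by name, every probe whose platform gene symbol is one of the 10 being taken. All 10 genes were on the array, with 16 of its 47218 probes, out of 20041 genes with a symbol. RNA came from cells grown in medium with serum to log phase, left untreated (3 arrays) or given 1 µM ODN2006 for 2 h (3 arrays). No incubation time is given for the untreated samples, so handling and time in culture cannot be told apart from ODN2006. The platform was the Illumina HumanHT-12 v4 bead array. ODN2006, a CpG oligonucleotide, activates Toll-like receptor 9 (TLR9), and the samples include no control oligonucleotide. All samples are of this leukaemia line alone, and separate cultures are not stated for the replicates, so the spread behind each p-value may be technical. The files give no slide or scan date, so a batch could not be examined.

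Type I interferons (alpha, beta, omega, epsilon) signal through a receptor of the IFNAR1 and IFNAR2 chains. Type III interferons (lambda) use IFNLR1 and IL10RB. Both lead through JAK kinases to STAT transcription factors and antiviral genes. Plasmacytoid dendritic cells are known for large interferon output after nucleic acid sensing by TLR7 and TLR9, which signal through MYD88 to the interferon regulatory factor IRF7 and to NF-kB. The IFNB1 gene carries a short enhancer just before its start, where NF-kB, interferon regulatory factors (IRF) and ATF-2 with c-Jun bind together, while alpha interferon promoters are known to rely on IRF sites.

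The upstream windows of IFNB1, IFNA1 and IFNL1 are shown because the first rose and the others stayed undetected, so that the letters before their starts can be compared. Each runs from 250 bases before the annotated start to the base before it, 5′ to 3′ on the gene's strand, in RefSeq's GRCh38.p14. Capitals mark matches, on either strand, to GGANNTTCC (an NF-kB site), AANNGAAA (an IRF half-site, which can overlap itself), TGACATAG (the ATF and c-Jun site) and TATAAA. The site letters were taken from what is known of the IFNB1 enhancer, so its matches are a description. The window of IFNB1 lies at chr9:21077943-21078192 (minus strand), that of IFNA1 at chr9:21440189-21440438 (plus strand) and that of IFNL1 at chr19:39296157-39296406 (plus strand).
IFNB1: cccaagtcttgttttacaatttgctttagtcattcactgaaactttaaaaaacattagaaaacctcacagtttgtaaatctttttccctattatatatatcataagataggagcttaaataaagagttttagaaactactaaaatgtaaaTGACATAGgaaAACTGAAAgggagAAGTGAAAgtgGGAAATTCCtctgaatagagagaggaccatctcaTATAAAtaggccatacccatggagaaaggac
IFNA1: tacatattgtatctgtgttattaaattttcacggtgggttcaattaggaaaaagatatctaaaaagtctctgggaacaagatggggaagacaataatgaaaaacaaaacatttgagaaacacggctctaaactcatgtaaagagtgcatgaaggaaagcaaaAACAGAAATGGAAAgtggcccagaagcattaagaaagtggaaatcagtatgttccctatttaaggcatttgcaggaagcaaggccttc
IFNL1: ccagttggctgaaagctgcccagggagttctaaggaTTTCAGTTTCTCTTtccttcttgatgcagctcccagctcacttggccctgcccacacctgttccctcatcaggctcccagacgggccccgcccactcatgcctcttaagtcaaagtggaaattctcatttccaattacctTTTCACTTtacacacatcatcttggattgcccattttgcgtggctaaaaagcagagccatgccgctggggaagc

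IFNB1 held the NF-kB letters at -65 to -57, IRF letters at -89 to -82 and -76 to -69, the ATF and c-Jun letters at -100 to -93 and TATAAA at -31 to -26. Of 35116 promoter windows of this length, 3.84% held the NF-kB letters, 20.3% the IRF letters, 0.379% the ATF and c-Jun letters and 10.7% TATAAA. NF-kB, IRF and ATF letters stood together in 2 windows. Promoters matched for 9 of the 10 genes, IFNL3 with 2 windows. None of the other 8 matched genes held the NF-kB, the ATF and c-Jun or the TATAAA letters in these windows. The IRF letters matched at 2 places in IFNA1, 3 in IFNA4, 3 in IFNA8, 3 in IFNL1, 2 in IFNL2 and 2 in 1 window of IFNL3, and at 0 in IFNA2 and IFNE. A match does not show that a factor binds there, and no match says only that these letters are not in the window.

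IFNB1 encodes interferon beta, and its gene spans 21077104 to 21077942 on the minus strand of chromosome 9 in GRCh38.p14. Its single probe gave raw signals of 107, 99.7 and 95.3 on the untreated arrays and 3761, 3939 and 5822 on the ODN2006 arrays. The detection p, which on Illumina arrays generally sets a probe against the negative controls (small where it is brighter), was 0.708, 0.774 and 0.831 without stimulation and 0 on each ODN2006 array. IFNB1 was thus within background on all untreated arrays and detected on all ODN2006 arrays, with no overlap of the groups.

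After background correction and joint normalization, IFNB1 stood at 4.40, 4.37 and 4.35 on the log2 scale in untreated cells and at 11.79, 11.96 and 12.31 after ODN2006. The fitted difference was 7.65 ± 0.16 (SE, 95% interval 7.30 to 7.99, n = 3 and 3, limma adjusted p = 2.43e-11 over 13816 tested probes). Because the untreated level lies below the lowest detected signal, the change is a bound. On this background-corrected scale IFNB1 was at least 110-fold higher after ODN2006. The bound applies to that scale only, and without the correction the log2 difference was 5.17. At an adjusted p under 0.05, 3.41% of the 8706 tested genes (297) rose and 1.81% (158) fell. Groups without overlap were found in 20.9% of tested genes. IFNB1 entered the test through its ODN2006 arrays alone, the filter being a detection p under 0.01 on all 3 arrays of a group. Of 46 tested genes undetected on every untreated array, 40 were called higher. With no filter the limma adjusted p of IFNB1 was 5.75e-07.

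The ODN2006 arrays differed among themselves more than the untreated arrays did, with SDs of 0.26 and 0.03 (n = 3 each), where the untreated values are near the floor of the corrected scale. Within same-numbered arrays the log2 difference was 7.39, 7.59 and 7.96. With the replicate number as a block it was 7.65 ± 0.13 (limma adjusted p = 1.96e-09). Without background correction it was 5.17 (adjusted p = 3.78e-09), and the deposited log2 values gave 7.66.

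**Figure D1:**
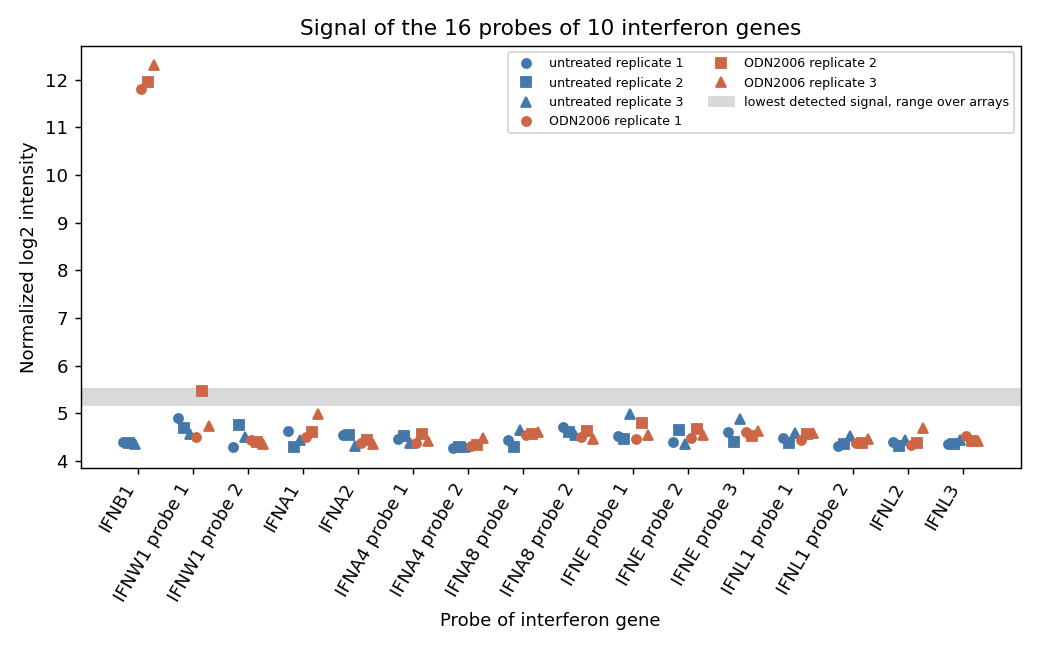
Normalized log2 intensity (y axis) of each probe of the 10 interferon genes (x axis) on 3 untreated and 3 ODN2006 arrays, 1 point per array. The grey band spans the lowest detected signal of the arrays, 5.18 to 5.50. The ODN2006 values of IFNB1 lie between 11.79 and 12.31, and of all other points only IFNW1 on ODN2006 replicate 2 reaches the band.

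The other 9 interferon genes, with 15 probes, did not pass the filter for testing, a detection p under 0.01 on all 3 arrays of a group. Their raw signals ran from 92.5 to 128 (median 104) on untreated arrays and from 100 to 138 (median 110) on ODN2006 arrays, while the arrays' own medians were 107 to 121 and 113 to 121. Of these 15 probes, 14 were detected on no array. Below detection a low level and no expression cannot be told apart, and less RNA per cell and fewer expressing cells cannot be told apart in bulk RNA.

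IFNW1, which encodes interferon omega, was detected once. Its first probe gave a log2 signal of 4.90, 4.69 and 4.57 on untreated arrays and 4.50, 5.46 and 4.74 after ODN2006. The detection p of that probe on ODN2006 replicate 2 was 0.0013, and on the other 2 ODN2006 arrays 0.453 and 0.139. The groups overlap, since replicate 1 of ODN2006 lies below all untreated arrays. With all 47218 probes in the fit the difference was 0.18 ± 0.24 (SE, limma adjusted p = 0.968). Its second probe was detected on no array and differed by -0.12 ± 0.13.

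Among interferon alpha genes, IFNA1 had the largest difference of means. It stood at 4.63, 4.30 and 4.44 on untreated and at 4.51, 4.60 and 4.98 on ODN2006 arrays, and the groups overlap. Its lowest detection p was 0.0286, on ODN2006 replicate 3. The difference without a filter was 0.24 ± 0.15 (SE, limma adjusted p = 0.858).

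IFNA2, which encodes the interferon alpha widely used as a drug, stood at 4.54, 4.55 and 4.31 without stimulation and at 4.38, 4.44 and 4.36 after it. Its difference was -0.07 ± 0.10 (SE) and no detection p was below 0.378. The 2 probes of IFNA4 differed by 0.00 ± 0.10 and 0.09 ± 0.09, and the 2 probes of IFNA8 by 0.11 ± 0.11 and -0.10 ± 0.10. The values of 1 IFNA4 probe did not overlap, at 4.26 to 4.30 untreated and 4.32 to 4.49 after ODN2006, all below the lowest detected signal. Interferon alpha genes are close copies of each other, and whether their probes also take up transcripts of other copies was not analysed here.

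IFNE, known for its constitutive expression in the female reproductive tract, has 3 probes. The brightest value of these was 4.98, on untreated replicate 3, with a detection p of 0.0364. Their differences were -0.05 ± 0.16, 0.10 ± 0.11 and -0.04 ± 0.13 (SE).

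The type III genes were at background as well. The first probe of IFNL1 gave 4.49, 4.38 and 4.59 on untreated and 4.43, 4.56 and 4.59 on ODN2006 arrays. The IFNL1 differences were 0.04 ± 0.10 and 0.01 ± 0.09 at its 2 probes, with no detection p below 0.265. IFNL2 differed by 0.08 ± 0.12 and IFNL3 by 0.07 ± 0.09, with lowest detection p of 0.170 and 0.378.

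Over the 15 probes the median difference was 0.04, with a range of -0.12 to 0.24, and 10 of them were above 0. The 29024 probes of the array that were detected on no array had a median difference of 0.00, and -0.20 and 0.20 at the 5th and 95th percentiles, and 50.5% were above 0. Groups did not overlap at 1 of the 15 probes and at 9.4% of the undetected probes. All 15 had an adjusted p of at least 0.858 in the fit without a filter.

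**Figure D2:**
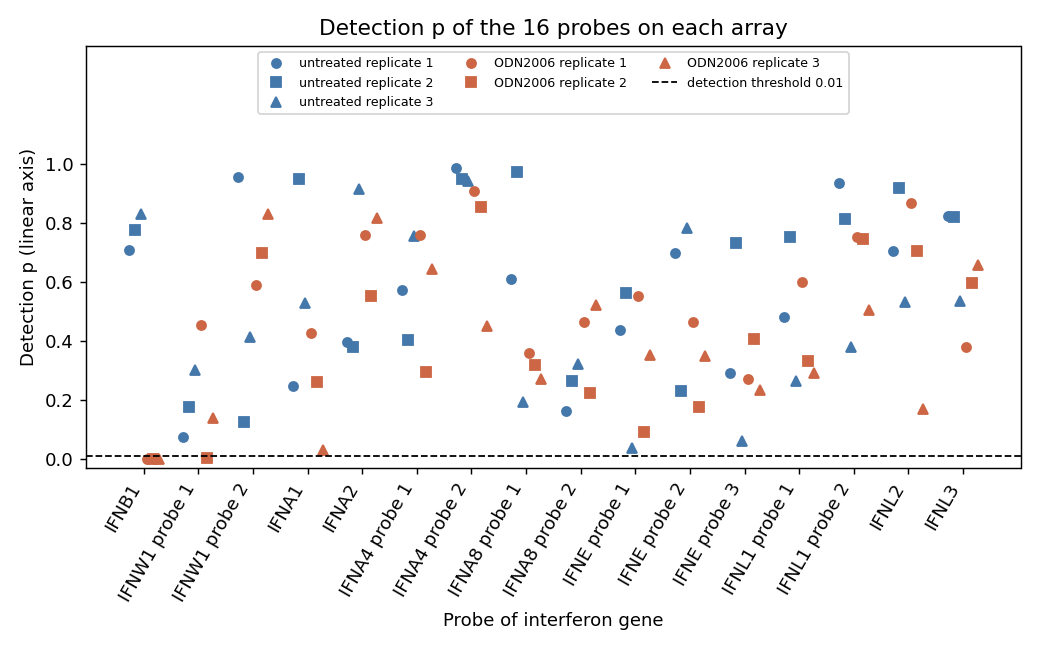
Detection p (y axis, linear) of each probe of the 10 interferon genes (x axis) on each array, with the threshold of 0.01 dashed. The 3 ODN2006 points of IFNB1 lie at 0, IFNW1 has 1 point below the line at 0.0013, and the remaining points are spread from 0.0286 to 0.987.

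The platform also carries 11 further interferon genes with 14 probes, among them IFNA14, IFNA21, IFNG and the skin interferon IFNK. None was detected on any array. Their lowest detection p was 0.0325 for IFNK and 0.0416 for IFNA14, and with no filter IFNG differed by -0.23. Among all 21 interferon genes with a probe, IFNB1 was therefore the only one detected on all 3 arrays of a group at a detection p under 0.01.

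The type I members of the set lie together on chromosome 9, with IFNB1 at one end and IFNE at the other. KLHL9, a ubiquitin ligase adaptor, lies between them. KLHL9 was detected on all arrays and differed by -0.14 ± 0.17 (SE, limma adjusted p = 0.821). On the IFNB1 side, HACD4, an enzyme of fatty acid elongation 45.5 kb from the cluster, differed by -0.20 ± 0.15 (adjusted p = 0.655), and FOCAD by -0.03 ± 0.17. On the IFNE side MTAP, a methionine salvage enzyme, differed by -0.08 ± 0.17, and MIR31 and CDKN2A were undetected, as was MIR491 within FOCAD. Beside the lambda cluster on chromosome 19, PAK4, GMFG and SAMD4B differed by -0.16, -0.17 and -0.06 and did not pass, and NCCRP1, SYCN and LRFN1 were undetected. Among these neighbours of either cluster no tested gene passed a limma adjusted p under 0.05, which does not show that they stayed the same.

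Likeness to IFNB1 was measured as the distance between background-corrected, normalized log2 values, each centred on its mean over the 6 arrays. CCL3L1 (distance 0.74), CCL3 (0.76), CCL4L1 (1.05) and CCL3L3 (1.54) came first of 8705, followed by CXCL8 (2.68) and PLAU (2.75). The first 4 are CCL3 and near-identical copies of CCL3 or CCL4, monocyte-attracting chemokine genes whose probes may share transcripts, CXCL8 attracts neutrophils, and PLAU encodes urokinase. CCL3 stood at 5.03, 5.14 and 4.87 in untreated cells and 13.04, 13.10 and 13.63 after ODN2006. CXCL8 was detected in untreated cells and stood at 11.95, 12.62 and 12.57 after ODN2006.

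The Pearson correlation of these 6 genes with IFNB1 over the 6 arrays was 0.9975 to 0.9998. These arrays form separated groups, and 70 genes had a value over 0.99, so the correlation describes the shared rise and little else. By correlation the first was IL23A, a cytokine subunit gene, and 2 of the 6 nearest genes were also among the 6 with the highest correlation. The order of the distances changed with the background correction, and IFNB1 and the CCL3 and CCL4 copies were undetected on every untreated array. Without it PLAU (0.76), CXCL8 (0.83) and CD69 (1.05) came first, ahead of CCL3L1 (1.09), CCL4L1 (1.17) and CCL3 (1.20), and CCL3L3 was 9th. Promoters matched for 4 of the 6 genes named first, and CXCL8 held the NF-kB letters at -91 to -83, and CCL3, CCL3L3 and PLAU did not.

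**Figure D3:**
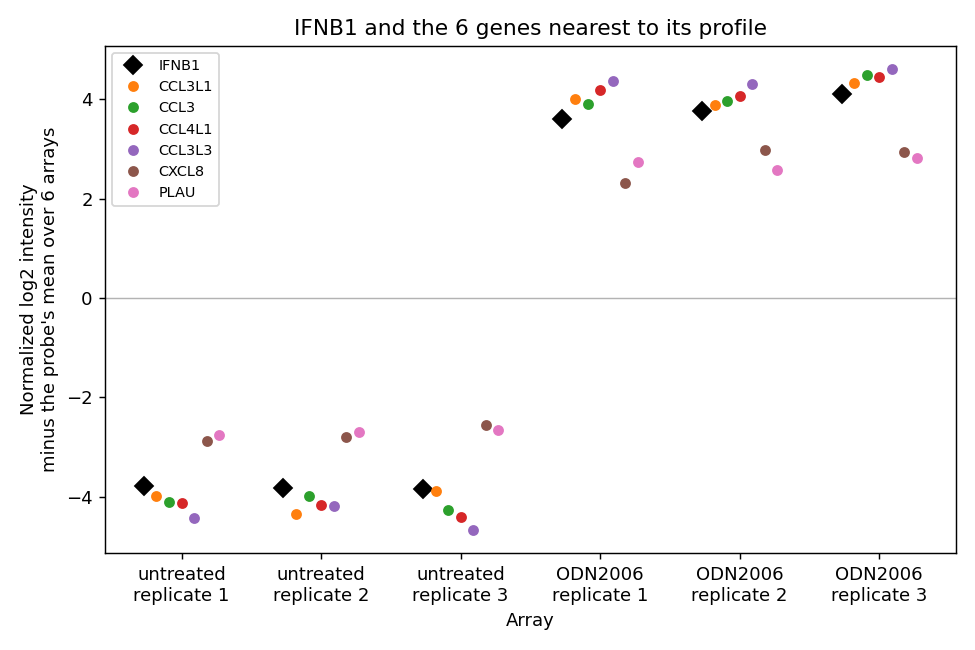
Normalized log2 intensity minus each probe's mean over the 6 arrays (y axis), on each array (x axis), for IFNB1 (diamonds) and the 6 genes nearest to it (circles). The CCL3 and CCL4 copies, with rises of 8.15 to 8.86, lie closer to IFNB1 on this background-corrected scale than CXCL8 and PLAU, which were detected in untreated cells and rose by 5.49 and 5.42, and without the correction CXCL8 and PLAU are the nearer.

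Upstream of the interferon genes, transcripts of TLR9 signalling components were detected and nearly all did not pass. Of 18 tested genes of the TLR9 route to interferon, 1 rose and 0 fell, against 3.41% and 1.81% of all genes, with a median log2 change of 0.00. The receptor gene TLR9 differed by -0.09, the regulatory factor gene IRF7 by 0.22 (95% interval -0.18 to 0.62) and IRF3 by -0.07 (-0.41 to 0.27). IRF1, an interferon regulatory factor, stood at 9.23, 9.08 and 8.89 untreated and 9.57, 9.82 and 9.73 after ODN2006, and it rose by 0.64 ± 0.15 (SE, limma adjusted p = 0.0284). IRF1 lost its call without untreated replicate 2 or 3 (adjusted p = 0.111 and 0.109), without ODN2006 replicate 2 or 3 (0.0996 and 0.0933), with median scaling (0.0545) and with no filter (0.0803). MYD88, the adaptor, differed by -0.47 (adjusted p = 0.0929), and with the replicate block it passed as a fall (adjusted p = 0.032).

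Of the factors that bind or open the IFNB1 enhancer, 3 of 13 tested genes rose and 0 fell, with a median of 0.09. The shares over all tested genes were 3.41% and 1.81%. JUN, which encodes c-Jun, stood at 7.18, 7.53 and 7.84 in untreated cells and 9.46, 9.84 and 9.52 after ODN2006, with no overlap. JUN rose by 2.09 ± 0.19 (SE, limma adjusted p = 1.50e-05). NFKB1, the p50 subunit gene of NF-kB, rose by 0.96 ± 0.16 (adjusted p = 0.00359), and IRF1 belongs to this list too. RELA, the other NF-kB subunit of that enhancer, differed by 0.24 (adjusted p = 0.544), ATF2 by -0.14 and the coactivator genes CREBBP and EP300 by -0.12 and 0.09.

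Among genes known to restrain interferon beta or the signals before and after it, 6 of 10 tested rose and 0 fell. The array carried 15 genes of this list, and the rest did not pass the filter for testing. Of all tested genes 3.41% rose and 1.81% fell. The median of the 10 was 1.15, and the list was chosen with earlier results of these data known. ATF3, a repressor of Ifnb1 in mice, stood at 6.60 to 6.73 untreated and 10.28 to 10.61 after ODN2006, a rise of 3.81 ± 0.15 (SE). TNFAIP3, the deubiquitinase A20, rose by 3.17 ± 0.15 and NFKB2 by 1.93 ± 0.20, with 1.46 at its other probe. SOCS3, an inhibitor of JAK signalling, was at least 2.31-fold higher after ODN2006 at its brightest tested probe. No untreated array detected that probe, and it passed the filter through its ODN2006 arrays alone. The bound is on the background-corrected scale, where the SOCS3 log2 change was 1.78, and without the correction it was 0.59 (adjusted p = 0.00137). Another SOCS3 probe was detected on an untreated array and was not among the tested probes. ATF3, TNFAIP3, NFKB2 and SOCS3 had limma adjusted p-values from 8.74e-09 to 7.10e-05. SOCS1 also rose, by 1.37 (limma adjusted p = 0.0125). It was detected on 1 untreated array and likewise passed the filter through its ODN2006 arrays alone. PRDM1, whose product represses IFNB1 through an enhancer site, differed by 0.65 (adjusted p = 0.0992) and CYLD by 0.72 (0.0531), and both passed with the replicate block (0.00739 and 0.0146).

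Interferon beta mRNA is short-lived because of AU-rich sequences, which proteins of the ZFP36 family and others bind. Of 11 tested genes for mRNA decay or RNA-binding proteins 3 rose and 0 fell, against 3.41% and 1.81% of all tested genes. The list is not limited to proteins that bind AU-rich sequences. The list's median was 0.18. ZC3H12A, the RNase regnase-1, rose by 3.02 ± 0.18 (SE, limma adjusted p = 4.36e-07), from 5.70, 5.83 and 6.26 to 8.87, 8.76 and 9.22, and by 1.83 without background correction. ZFP36 rose by 1.81 ± 0.15 and ZFP36L1 by 1.04 ± 0.16 (adjusted p = 7.12e-06 and 0.00166). ZFP36L2 was lower by a log2 change of -0.60 and did not pass (adjusted p = 0.0556), but passed with the replicate block (0.0176).

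On the receptor side 2 of 11 tested genes rose and 0 fell, against 3.41% and 1.81% of all tested genes. The list's median was -0.09. IFNLR1, the chain that makes a cell responsive to lambda interferons, stood at 8.18, 8.09 and 8.11 untreated and at 8.99, 9.16 and 9.47 after ODN2006, with no overlap. IFNLR1 rose by 1.08 ± 0.16 (SE, limma adjusted p = 0.000983), and its other probe by 0.70 ± 0.17 (adjusted p = 0.035). IFNGR2, a chain of the interferon gamma receptor, rose by 0.79 ± 0.14 (adjusted p = 0.00624). The chains of the type I receptor, IFNAR1 and IFNAR2, differed by -0.07 and -0.14, IL10RB by -0.11, and the kinase genes JAK1 and TYK2 by 0.00 and -0.01, none of which passed.

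Of 37 interferon-stimulated genes on the array 28 passed the filter for testing. Of these 28, 4 rose and 0 fell, against 3.41% and 1.81% of all tested genes. The list's median was -0.16 against -0.05 over all tested genes. Values below 0 were found for 23 of the 28, and for 61% of all tested genes. IFIT2, an antiviral RNA-binding protein gene, stood at 6.48, 6.32 and 6.37 untreated and at 7.64, 7.43 and 8.07 after ODN2006, with no overlap. IFIT2 rose by 1.32 ± 0.17 (SE, limma adjusted p = 0.000478), and by 0.73 without background correction. OASL, ISG20 and GBP2 also rose, by 1.22, 0.84 and 0.81, and OASL by 0.51 without background correction. GBP2 was detected on 1 untreated array and passed the filter through its ODN2006 arrays alone. It lost its call without untreated or ODN2006 replicate 3, without background correction and with no filter (adjusted p 0.0748 to 0.173). GBP2 was not tested under the stricter filter. IFIH1, the RNA sensor MDA5, differed by 0.67 (adjusted p = 0.153) and passed with the replicate block (0.0186). IFIT1 differed by -0.61 (adjusted p = 0.209), with no overlap of the groups, and IFIT3 by -0.12, and neither passed. RSAD2, USP18, CMPK2 and CXCL11 were undetected, and CXCL10 was detected on 2 ODN2006 arrays.

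**Figure D4:**
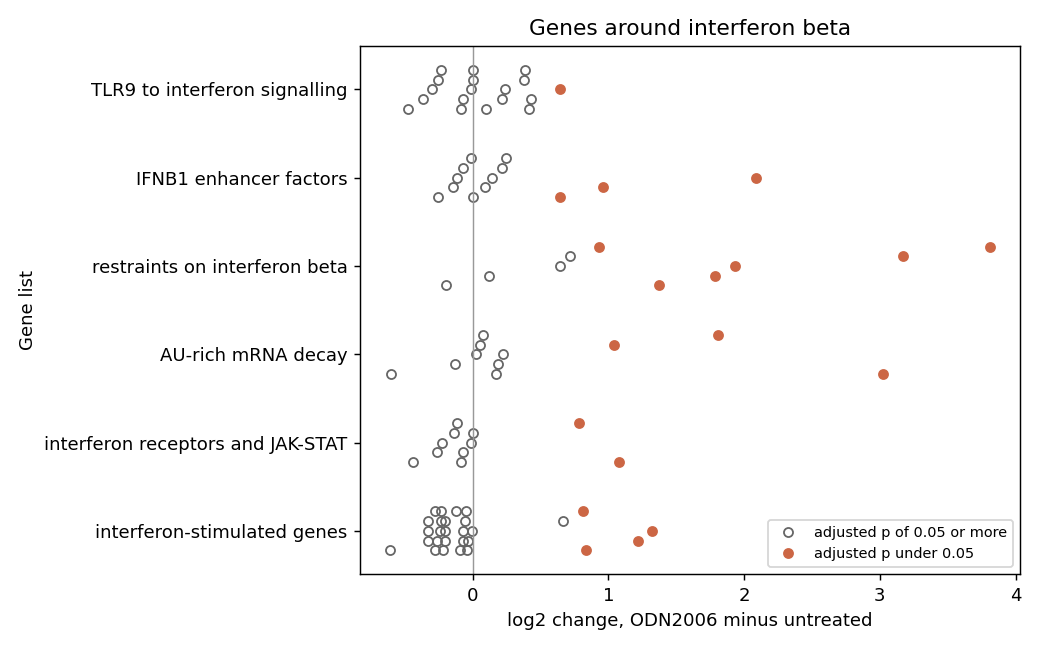
log2 change after ODN2006 (x axis) of each tested gene, 1 point per gene, in 6 lists around interferon beta (y axis), filled where the limma adjusted p was under 0.05. Rises number 1 of 18, 3 of 13, 6 of 10, 3 of 11, 2 of 11 and 4 of 28 from top to bottom, and no filled point lies below 0. Of all tested genes 3.41% rose.

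Over the whole series 13454 to 15447 probes were detected per array. Of 12 defining genes of plasmacytoid dendritic cells, 11 were detected on all arrays, IRF8, IRF7, CLEC4C and GZMB included. At a limma adjusted p under 0.05, 0 of these 11 were called. NRP1, at -0.57 (limma adjusted p = 0.259), passed as a fall with the replicate block (0.044), while LILRA4 was detected on 1 ODN2006 array. The line also carried monocyte and conventional dendritic cell transcripts, CD1C at 12.46 and CSF1R at 11.13 in untreated cells, and 0 of 6 tested markers of these cells were called. Of 2 tested T and NK cell markers and 2 tested B cell markers 0 were called, and CD3D, CD3E, CD8A and PAX5 were undetected. The tested ones were detected on all arrays, NKG7 at 6.11, CD3G at 5.78, CD79B at 7.91 and CD79A at 5.60 in untreated cells. Of the monocyte and dendritic cell markers, S100A8, FCN1 and CLEC9A were undetected. The part of these transcripts in the results was not tested.

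**Figure D5:**
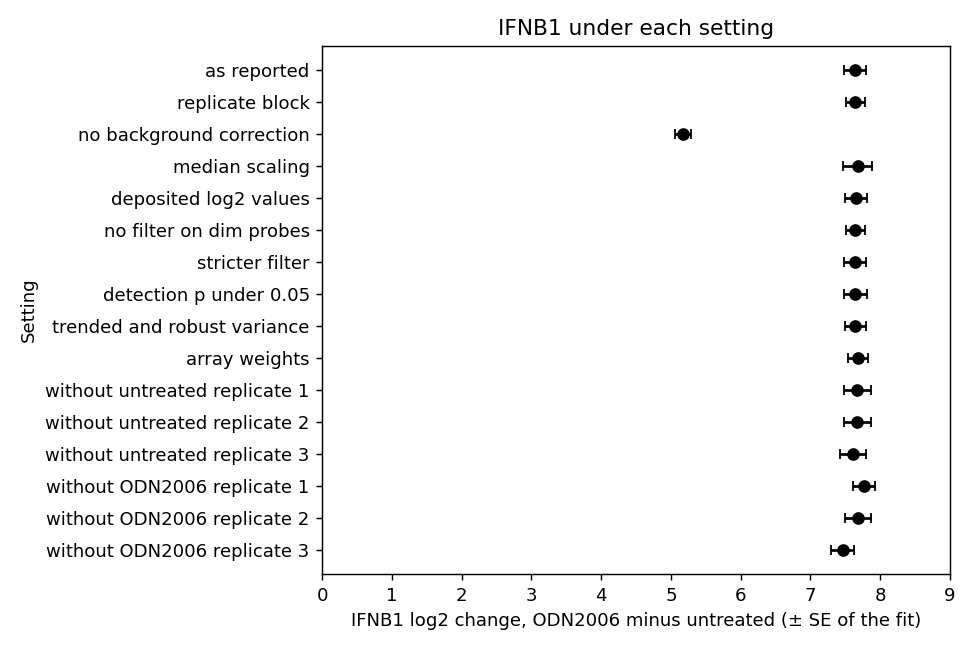
Difference of IFNB1 on the log2 scale (x axis) as reported and under 15 other settings (y axis), with bars for the SE of each fit. Leaving out 1 array gives 7.46 to 7.77, and the point set apart is that without background correction, at 5.17.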

How the data were processed

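Total RNA of GEN2.2 cells was hybridised to bead arrays, 3 untreated and 3 ODN2006, grouped by the treatment label. The authors deposited probe intensity, non-normalized per the file headers, with a detection p-value per probe and array. The log2 values that the authors deposited (medians 4.67 untreated and 4.59 ODN2006) name limma in the submitters' processing notes, their steps being unknown here, and served as an alternative.

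Intensities were background-corrected (normexp, negative controls inferred from the detection p-values, offset 16) and quantile-normalized together with neqc (limma 3.58.1, R 4.3.3). Probes detected (p under 0.01) on all 3 arrays of a group were tested with lmFit and eBayes, two-sided, with Benjamini-Hochberg adjustment over 13816 probes. A gene is represented by its brightest tested probe. Symbols were updated through gene IDs with RefSeq's GRCh38.p14 table. A bound sets the bright group's mean against, per array, whichever is higher, the lowest detected signal or the probe's own.

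Same-numbered arrays, numbered in the sample titles, deviated together across tested probes (correlations 0.41, 0.35 and 0.46), so the unblocked fit was repeated with replicate number as block. The shares of all tested genes are those of the unblocked fit, with 297 rises and 158 falls. With the block 405 genes rose and 358 fell, which is the background for genes that passed only with it. Members, lists and tests were chosen with earlier results of these data known. Named genes are all members, up to 4 called genes of each list with the largest change (2 of the brightest where none was called), the 6 nearest to IFNB1 and 3 neighbours on each side of a cluster. Any further gene was named with its values known. The fit was tested on simulated data. The number of arrays limits the precision.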

Additional observations from a re-analysis of the deposited data

How the results depend on the processing

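IFNB1 kept its direction and its call in all 15 alternatives, between 5.17 without background correction and 7.77 without ODN2006 replicate 1, with the highest adjusted p at 5.75e-07 (no filter). The count of genes that fell moved from 158 to 358 with the replicate block, 104 with median scaling, 107 without background correction and 58 with no filter on dim probes, and ranged from 51 to 116 with 1 array left out, the cause not being tested. Genes that rose numbered 405 with the block and 219 to 331 in the other settings, leaving out 1 array included. In the TLR9 list the single rise, IRF1, was lost (0 rises) with median scaling and with no filter, and 0 to 1 rose with 1 array left out, while the replicate block added 1 fall, MYD88. Of the enhancer factors 2 rose with median scaling and with no filter, and 2 to 3 with 1 array left out, the loss being IRF1. Interferon-stimulated genes that rose numbered 3 to 5 over all settings. Receptor rises stayed at 2 in every setting. The number of the 10 interferon genes detected on all arrays of a group was 1 at each of 3 detection thresholds. Signal over background limits the 9 untested interferon genes, of which 8 were detected on no array and IFNW1 on 1, and no direction can be read for them. Without background correction the log2 changes of SOCS3, ZC3H12A, IFIT2 and OASL were 0.59, 1.83, 0.73 and 0.51 against 1.78, 3.02, 1.32 and 1.22, and all 4 kept their call.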
